A study of Mus musculus with 28 samples.

Results

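The genes described here include the subunits of the transcription factor NF-kB, namely Nfkb1, Nfkb2, Rel, Rela and Relb. With them come the inhibitors Nfkbia, Nfkbib and Nfkbie, the gene Nfkbiz of an atypical nuclear IkB protein, and the ubiquitin-editing brake Tnfaip3. All were chosen by gene symbol, 10 of the 24391 genes in the count table, and all 10 passed the filter on low counts in every comparison. Nfkbia drew attention in earlier results because of its difference between exercised and resting mice in the microglial fraction, so the values of that contrast, and Nfkbia's enrichment in that fraction, are given as a description, with no p and nothing read from how many of the 10 passed a threshold there.

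All libraries came from the motor cortex of mice with the genotype Cx3CR1-Cre/TRAPfl, and the ages of the mice were not used here. The Cre is driven by Cx3cr1, which microglia express and which macrophages at the borders of the brain express too. It switches on a ribosome tag, and TRAP (translating ribosome affinity purification) pulls down the tagged ribosomes with the mRNA bound to them. The 4 groups were Run TRAP, home cage TRAP, Run total lysate and home cage total lysate, with 7 libraries each. Run mice spent 1 h on a rotarod and home cage mice were the resting controls of the same genotype. Each mouse gave 1 library of each fraction. The 14 mice came in 2 cohorts: 4 Run and 4 home cage mice formed cohort 1, 3 and 3 formed cohort 2.

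NF-kB acts as a dimer of its subunits. In resting cells the dimers sit in the cytoplasm, bound by inhibitors of the IkB family, and a signal from receptors such as those for TNF, interleukin 1 or bacterial products makes a kinase complex mark the inhibitor for destruction. The freed dimer enters the nucleus and switches on inflammatory and survival genes. Among its best known targets are its own inhibitors Nfkbia and Tnfaip3, so that their mRNA is often read as a sign of recent activity. In microglia, the immune cells of the brain, this pathway drives the response to injury and infection.

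The sites that NF-kB binds follow a consensus called the kappa-B motif. Mouse promoter sequences from RefSeq (GRCm38.p6), 250 bases before to 50 bases after the start, held an entry for 7 of the 10 genes. Nfkbiz, Nfkb1 and Relb had none. Both strands were searched for the 10-letter kappa-B motif, and overlapping matches were counted separately. Of those 7 genes, 5 had at least 1 match, namely Nfkbia, Nfkbie, Nfkb2, Rel and Tnfaip3, and Nfkbib and Rela had none. Over all 32851 mouse promoters of that length, 8.46% held a match and 1.22% held 2 or more. The first Nfkb2 promoter held 3 matches, of which 2 overlap, a count reached by 0.186% of all promoters. The 250 bases before the start are shown for 3 genes, because the plots and values below turn on the contrast between them: Nfkbia, the inhibitor whose Run values stood apart, Tnfaip3, another textbook target with matches in its promoter, and Rela, the main activating subunit, whose promoter has no match. Each runs 5′ to 3′ on the gene's strand, with matches in capitals. Nfkbia is at chr12:55492648-55492897 (minus strand), Tnfaip3 at chr10:19015411-19015660 (minus strand) and Rela at chr19:5637291-5637540 (plus strand).
Nfkbia: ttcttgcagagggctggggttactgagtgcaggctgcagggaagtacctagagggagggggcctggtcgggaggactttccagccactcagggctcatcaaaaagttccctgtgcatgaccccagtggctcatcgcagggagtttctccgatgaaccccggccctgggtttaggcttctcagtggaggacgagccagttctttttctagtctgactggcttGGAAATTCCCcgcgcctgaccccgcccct
Tnfaip3: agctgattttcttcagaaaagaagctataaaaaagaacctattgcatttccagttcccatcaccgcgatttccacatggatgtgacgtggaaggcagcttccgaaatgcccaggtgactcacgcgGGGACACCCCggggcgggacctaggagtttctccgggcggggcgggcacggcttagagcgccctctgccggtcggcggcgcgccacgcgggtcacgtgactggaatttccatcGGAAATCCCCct
Rela: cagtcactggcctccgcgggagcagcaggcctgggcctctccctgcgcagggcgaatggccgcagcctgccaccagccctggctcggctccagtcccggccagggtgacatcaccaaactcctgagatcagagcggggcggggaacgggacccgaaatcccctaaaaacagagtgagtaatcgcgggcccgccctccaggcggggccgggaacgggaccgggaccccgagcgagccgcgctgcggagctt
A match describes letters in a window and does not show that a factor binds there.

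Sequencing depth, as total counts, was 104598915 to 241381845 for Run TRAP libraries and 104405588 to 157669964 for those of home cage TRAP. Lysate libraries held 70090518 to 179477632 in Run mice and 84399875 to 169315558 in home cage mice. Counts of 1 to 20 were even in 68.3% to 75.3% of genes, depending on the library, so single counts are not independent molecules. The limits of 3 counts given below for a count of 0 assume independent counts and may be too low. They cover counting error only. The summed level of 10 microglia markers was 16588 to 34166 CPM (read counts scaled by library size) in Run TRAP and 17544 to 33051 CPM in home cage TRAP, against 336 to 417 CPM in Run lysate and 358 to 492 CPM in home cage lysate. Markers of border-associated macrophages, which carry the tag as well, summed to 623 to 1353 CPM in Run TRAP and 594 to 1087 CPM in home cage TRAP. Markers of blood leukocytes, which also use NF-kB, summed to 5.67 CPM or less in every library, and the red cell genes Hba-a1, Hbb-bs and Hbb-bt were listed at 0 in all of them. The summed level of 4 Y-linked genes went against the labelled sex in 4 of 28 libraries. They came from a pair of cohort 2 mice in the Run group, Male1 and Female2, and results that rest on these 2 mice are given with and without them.

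In the TRAP fraction the inhibitor Nfkbia and the activating subunit Rela were the most abundant of the 10 mRNAs. TRAP libraries also held RNA of other cells, so these levels are not those of microglia alone. Levels are compared between genes as CPM per kilobase of exon, with all 28 libraries scaled together. In home cage TRAP, Nfkbia, which encodes IkB alpha, averaged 77.0 ± 46.1 CPM per kilobase (SD, n = 7). Rela, the p65 subunit that carries the activation domain, averaged 47.1 ± 27.3 on the same scale. Nfkbib, which encodes IkB beta, followed with 16.6 ± 7.24, close to its 15.8 ± 8.74 in home cage lysate. In each cohort taken alone the TRAP levels of these 3 genes kept this order with no overlap between neighbours. The middle of the order was held by Nfkbie (IkB epsilon) at 7.82 ± 2.97, Nfkb1 (the p105 precursor of p50) at 7.25 ± 3.70, Relb, a subunit of the noncanonical pathway, at 5.79 ± 3.71, and Nfkb2 (the p100 precursor of p52) at 4.78 ± 3.20 CPM per kilobase. These 4 overlapped with their neighbours in the order. Exon length was the union of all annotated exons of a gene. For Nfkb1 that union holds 12061 bases, whereas its longest transcript has 4149, so its place in TRAP and in lysate depends on the length used. Tnfaip3, which encodes the ubiquitin-editing protein A20, averaged 1.84 ± 0.40. Rel, the c-Rel subunit best known from lymphocytes, averaged 0.25 ± 0.12, and Nfkbiz, an atypical nuclear IkB protein, averaged 0.18 ± 0.14. In cohort 1 Rel and Nfkbiz overlapped, and in cohort 2 Rel lay above Nfkbiz without overlap.

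The order differed in the whole tissue. In home cage lysate Nfkbib averaged 15.8 ± 8.74 CPM per kilobase and Nfkbia 14.5 ± 6.00, with overlapping ranges in both cohorts. Rela followed at 5.54 ± 2.95 and Relb at 1.41 ± 0.80. The remaining 6 averaged below 1 CPM per kilobase, from 0.82 ± 0.21 for Nfkbie to 0.04 ± 0.02 for Rel (SD, n = 7 each). Nfkbib and Nfkb2 share exon bases with genes on the opposite strand, 314 with Ccer2 and 42 with Sirt2 for Nfkbib, and 531 with AC114539.1 and 299 with Psd for Nfkb2. Whether the counting used strand is not given in the sources used here, so reads of these stretches are uncertain.

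**Figure D1:**
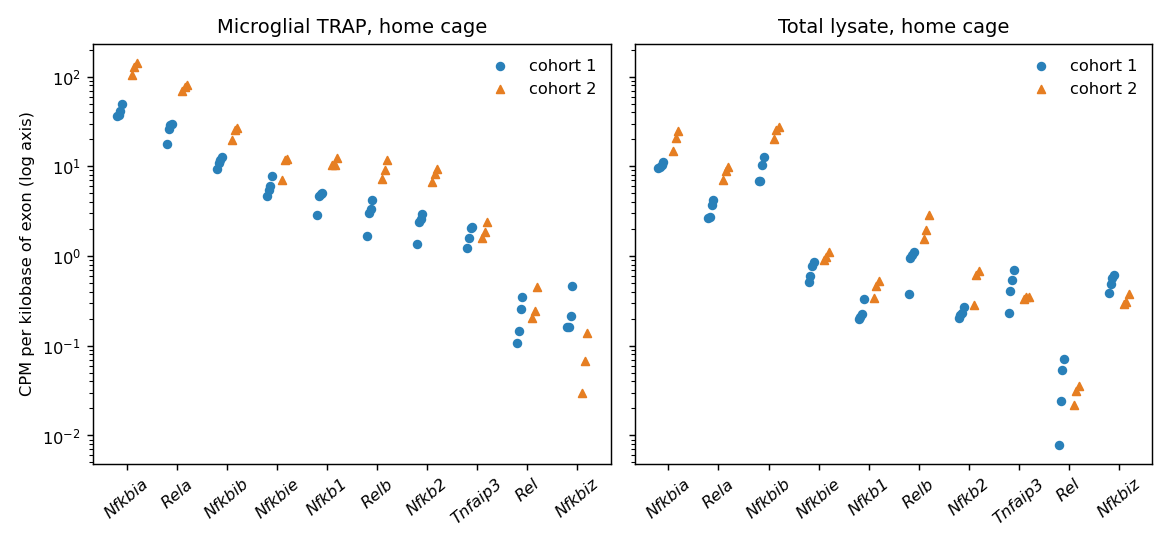
Levels of the 10 genes in home cage mice as CPM per kilobase of exon on a log axis, in microglial TRAP on the left and total lysate on the right. Each point is 1 library, with circles for cohort 1 and triangles for cohort 2. With length taken as the union of annotated exons, Nfkbia, Rela and Nfkbib lead in both panels, and Rel is lowest in lysate.

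The 2 cohorts differed in level for most of these genes. Nfkbia averaged 169 ± 26.1 CPM (SD, n = 3) in home cage TRAP of cohort 2, and 55.1 ± 6.64 CPM (n = 4) in cohort 1, a ratio of 3.07. The corresponding ratio was 3.52 for Nfkb2 and 2.98 for Rela, but 1.13 for Tnfaip3 and 0.32 for Nfkbiz. GC content of the longest transcript moved with that ratio: Spearman's rho over the 10 genes was 0.61 in TRAP and 0.75 in lysate, as a description across genes that share their libraries. Nfkb2, with 59.4% GC, and Rel, with 42.5%, mark the ends of the GC range. Some genes departed from the trend: Nfkb1, with 44.9% GC, had a ratio of 2.54 in TRAP, above Nfkbie with 55.4% GC and 1.73. Library cohort, GC content and level moved together only in part. Their part in the levels was not tested, and Run and home cage are compared within cohort throughout.

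Most of the family was enriched in the TRAP fraction. Against total lysate, 7 of the 9 genes other than Nfkbia passed the test as higher in TRAP and 1 passed as lower, while 73.9% of the 16880 tested genes were called, 33.8% as higher and 40.1% as lower (edgeR quasi-likelihood test on TRAP over lysate, adjusted p under 0.05). The median log2 fold of these 9 genes was 2.65, beside -0.21 for all tested genes. In bulk libraries more RNA per cell and more cells of a type cannot be told apart.

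Nfkb1 and Nfkb2 headed this order. Nfkb1 was higher in TRAP by a log2 fold of 4.36 ± 0.14 (SE; adjusted p 3.17e-22, edgeR), and its ratio of TRAP to lysate within a mouse ran from 12.4 to 28.4 in Run mice and from 13.8 to 30.2 in home cage mice. Nfkb2 was higher by 3.52 ± 0.15 (adjusted p 5.75e-19) and Rela by 2.99 ± 0.11 (adjusted p 3.31e-21), both above lysate in all 14 mice. Relb was higher by 2.05 ± 0.16 (adjusted p 4.64e-13), also in 14 of 14 mice. Rel, the scarcest subunit, was higher by 2.65 ± 0.47 (adjusted p 9.13e-06, edgeR) and above lysate in each of the 13 mice in which both libraries had a count. The lysate library of Run Female1 of cohort 1 held 0 Rel counts, which allows up to 0.043 CPM (3 counts).

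The inhibitors and Nfkbiz differed among themselves. Nfkbie was higher in TRAP by 3.04 ± 0.15 on the log2 scale (adjusted p 1.33e-17, edgeR) and Tnfaip3 by 2.04 ± 0.20 (adjusted p 1.33e-10), each in 14 of 14 mice. Nfkbia had a log2 fold of 2.51 ± 0.14, given as a description, with a ratio from 3.61 to 14.5 in Run mice and from 3.77 to 6.99 in home cage mice. Nfkbib did not pass the test, at 0.11 ± 0.12 on the log2 scale (adjusted p 0.43, edgeR), with TRAP above lysate in 7 of 14 mice and ratios from 0.61 to 1.58. Nfkbiz was the only one of the 10 that was lower in TRAP, at a log2 fold of -1.46 ± 0.44 (adjusted p 0.0043, edgeR). Its ratio lay above 1 in 1 of the 13 mice with a count in both libraries, a Run mouse at 1.00. In the TRAP library of Run Male1 of cohort 1 Nfkbiz had 0 counts, which allows up to 0.023 CPM (3 counts). The Nfkbiz call did not hold in cohort 1 alone, at -1.11 ± 0.67 (adjusted p 0.15, edgeR).

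**Figure D2:**
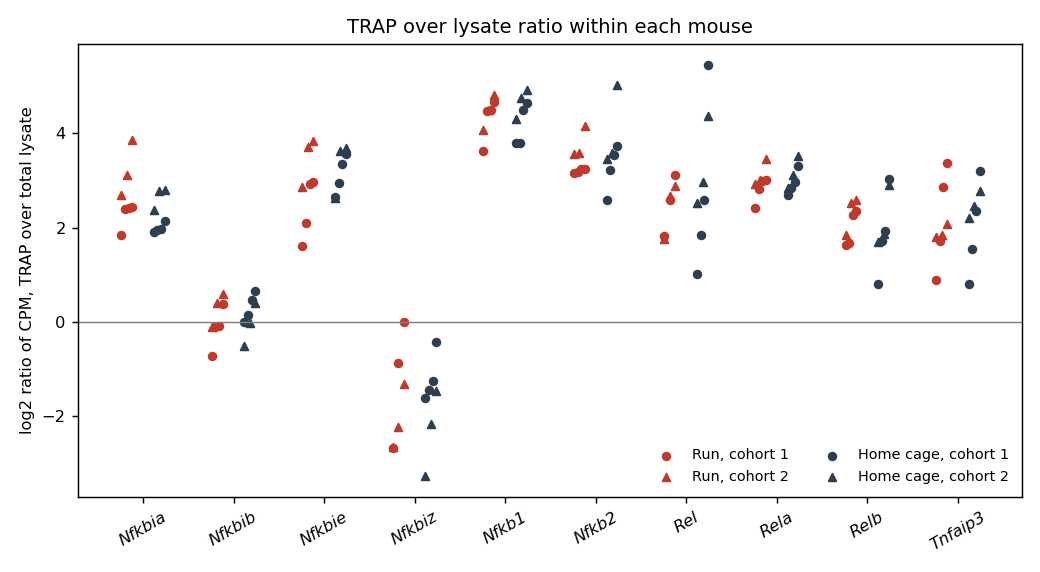
TRAP over total lysate for each of the 10 genes, as the log2 ratio of CPM within each mouse, with Run mice in red left of home cage mice in dark blue and cohorts as circles and triangles. Nfkb1 has the highest median, Nfkbib straddles 0 and Nfkbiz lies below 0 in all but 1 mouse; mice with a count of 0 in either library are left out.

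Markers of other cell types also separated the fractions. All 10 neuron markers were lower in TRAP, with a median log2 fold of -1.45, and so were all 6 oligodendrocyte markers, with a median of -1.40. Neuron RNA remained in TRAP, where the neuron markers summed to 2136 to 8658 CPM in Run and 2123 to 6372 CPM in home cage mice. In lysate they summed to 8926 to 17515 CPM in Run and 9030 to 16004 CPM in home cage mice. All 8 endothelial markers were higher in TRAP, with a median of 2.38. Their summed level was 166 to 541 CPM in Run TRAP and 139 to 696 CPM in home cage TRAP, against 29.0 to 83.5 CPM in Run lysate and 32.4 to 91.4 CPM in home cage lysate. The part of endothelial RNA in the enrichment of the NF-kB genes was not tested.

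In each of the other pathway lists, given from the cell surface inwards, most genes passed the test as higher in TRAP. The shares to compare them with are those of all 16880 tested genes, 33.8% higher and 40.1% lower. The median log2 fold of all tested genes was -0.21. Of these lists the negative regulators lay closest to it, at 0.65. Among 15 upstream receptors, 12 were called higher in TRAP and 1 lower, with a median log2 fold of 4.80. Cd14, the co-receptor for lipopolysaccharide, was higher by 6.07 ± 0.15 (adjusted p 2.5e-25, edgeR), the TNF receptor Tnfrsf1a by 4.90 ± 0.14 and Tnfrsf1b by 6.22 ± 0.19, while Il1rap, the accessory chain of the interleukin 1 receptor, was lower, at -1.55 ± 0.23. Of 22 adaptors and ubiquitin ligases, 16 were higher and 2 lower, with a median of 1.29. Myd88, the adaptor of Toll-like receptors, was higher by 4.15 ± 0.12, Tab2 by 2.34 ± 0.09 and Card9 by 5.42 ± 0.26. Btrc, the ligase subunit that recognises the marked IkB proteins, was lower, at -1.15 ± 0.09, and the inhibitor of apoptosis Birc2 was at -0.65 ± 0.13.

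All 12 genes of the kinase complex and upstream kinases, a list that includes the regulatory subunit Ikbkg, passed the test, 10 as higher and 2 as lower, with a median log2 fold of 1.17. The receptor-proximal kinases Irak4 (5.07 ± 0.22), Ripk1 (3.03 ± 0.14) and Irak1 (1.42 ± 0.07) were higher in TRAP. The IKK-related kinases Tbk1 (-0.78 ± 0.10) and Ikbke (-2.45 ± 0.58) were lower. Of 17 negative regulators, 10 were higher and 3 lower, with a median of 0.65. Otulin, a deubiquitinase of linear chains, was higher by 1.85 ± 0.09, Tnip2 by 1.56 ± 0.16 and the decoy kinase Irak3 by 2.38 ± 0.28, and Tank (-1.10 ± 0.13), Rnf11 (-0.52 ± 0.13) and Pdlim2 (-0.21 ± 0.09) were lower. Of the 3 other IkB-like genes, Nfkbil1 (1.86 ± 0.12) and Bcl3 (3.14 ± 0.42) were higher.

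Target genes of NF-kB stood higher in TRAP too. Of 40 listed, 34 passed the filter on low counts, and of those 26 were called as higher and 1 as lower. Their median log2 fold was 2.91. The chemokine Cxcl16 was higher by 5.59 ± 0.17 (adjusted p 9.95e-23, edgeR), the mRNA decay factor Zfp36 by 3.84 ± 0.15 and the survival gene Bcl2a1b by 5.15 ± 0.20. Ptgs2, the cyclooxygenase that cortical neurons express, was lower, at -2.42 ± 0.35. Bcl2a1b has near-identical copies in the genome, so its value is uncertain.

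Between Run and home cage mice, Nfkbia was the 1 gene of the 10 whose groups did not overlap in either cohort or fraction, with Run above. In TRAP of cohort 1, Nfkbia had 78.1, 117, 125 and 112 CPM in Run mice, against 64.3, 53.6, 53.9 and 48.4 CPM in home cage mice. In cohort 2 it had 211, 614 and 310 CPM in Run mice, against 195, 143 and 170 CPM in home cage mice. Every Run library lay above every home cage library of its cohort, narrowly so for the lowest Run library of each. The highest value, 614 CPM, came from the mouse labelled Female2 of cohort 2, which is 1 of the 2 whose Y-linked level went against the label. The fit gave a log2 fold change of 1.05 ± 0.19 (SE), or 2.08-fold, and 0.80 ± 0.15 without those 2 mice. Leaving them out leaves 1 Run mouse in cohort 2, Female1, which such fits assume to vary like the other groups. Within cohorts it was 0.97 ± 0.16 in cohort 1 and 1.16 ± 0.33 in cohort 2. With the level of microglia over neuron markers as a covariate it was 0.99 ± 0.19.

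Total lysate of the same mice gave the same direction. In cohort 1 Nfkbia had 31.9, 30.7, 33.9 and 29.6 CPM in Run mice, against 21.8, 20.1, 19.2 and 18.5 CPM in home cage mice. In cohort 2 it had 47.0, 60.2 and 50.4 CPM in Run mice, against 39.3, 28.5 and 46.9 CPM in home cage mice. The gap was wide in cohort 1, and in cohort 2 the lowest Run value, 46.97 CPM, lay just above the highest home cage value, 46.87 CPM. The log2 fold change was 0.58 ± 0.11, or 1.49-fold, higher in 7 of 7 Run mice than every home cage mouse of their cohort, and it missed the threshold (adjusted p 0.083, edgeR). It was 0.57 ± 0.13 without the 2 mice, 0.66 ± 0.14 in cohort 1 and 0.45 ± 0.18 in cohort 2. The shares over all genes are for those with a mean CPM of at least 1 in the fraction. In TRAP, Run lay above home cage without overlap in both cohorts for 0.181% of 13252 genes and below for 0.0755%. In lysate it lay above for 0.329% of 13670 genes and below for 0.0951%. Nfkbiz in TRAP and Rel in lysate, with group means below 1 CPM, were not among them.

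**Figure D3:**
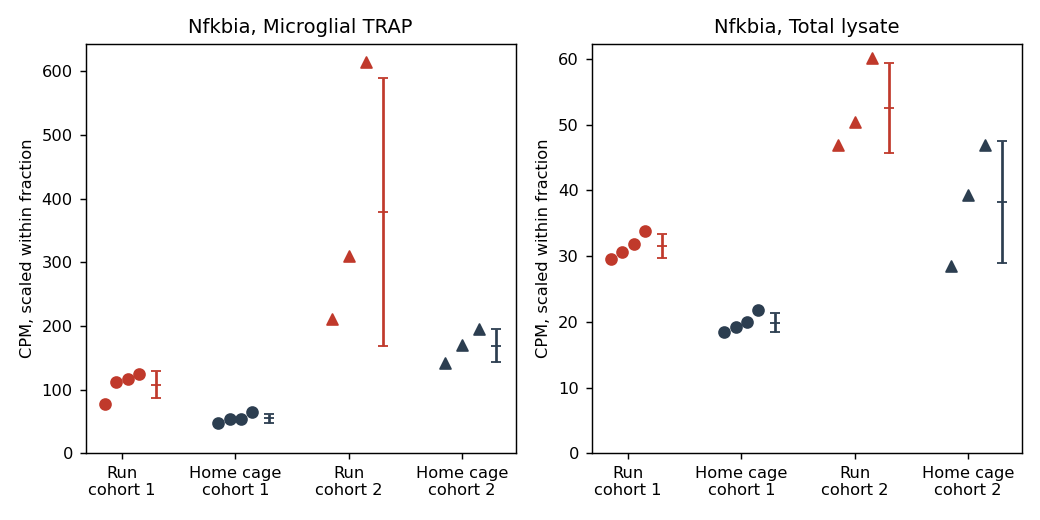
Nfkbia in each library as CPM, in microglial TRAP on the left and total lysate on the right, with Run left of home cage within each cohort. Bars show mean and SD (n = 4 in cohort 1 and 3 in cohort 2). Run libraries lie above home cage libraries in all 4 pairs, and the TRAP library at 614 CPM stands above the rest.

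None of the 10 genes passed the test between Run and home cage in lysate, where 0.0303% of 16522 genes were called, all higher in Run (edgeR). Nfkbia was the 1 gene with an unadjusted p under 0.05, and DESeq2 called 1 gene, Nfkbia, where limma-voom called 0. In TRAP the count was 0 of the 10 and 0.0384% of 15644 genes were called, all higher in Run; nothing is read from it, since the genes were chosen with that contrast known. Among the other IkB genes in TRAP the log2 fold change was 0.01 ± 0.17 for Nfkbib, -0.13 ± 0.18 for Nfkbie and 0.18 ± 0.87 for Nfkbiz. Among subunits it was -0.10 ± 0.14 for Nfkb1, -0.30 ± 0.17 for Nfkb2, -0.10 ± 0.13 for Rela, 0.17 ± 0.46 for Rel and 0.22 ± 0.19 for Relb. Rel and Nfkbiz varied most between cohorts, Rel with 0.91 ± 0.57 in cohort 1 and -0.83 ± 0.55 in cohort 2, and Nfkbiz with -0.22 ± 1.26 in cohort 1 and 0.75 ± 0.99 in cohort 2. Run and home cage libraries of all genes but Nfkbia overlapped in both cohorts, Tnfaip3 included.

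In lysate the subunits gave -0.05 ± 0.21 for Nfkb1, -0.15 ± 0.24 for Nfkb2, 0.004 ± 0.15 for Rela, 0.64 ± 0.78 for Rel and 0.06 ± 0.21 for Relb. Among the other IkB genes the values were 0.11 ± 0.16 for Nfkbib, 0.23 ± 0.20 for Nfkbie and 0.17 ± 0.23 for Nfkbiz. Adjusted p-values of the 9 genes in lysate ran from 0.79 to 1.00 (edgeR). The standard errors show how unequal the precision was: Rela, at 9.48 CPM or more in every Run lysate library, was measured far more tightly than Rel, at 1.82 CPM or less.

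**Figure D4:**
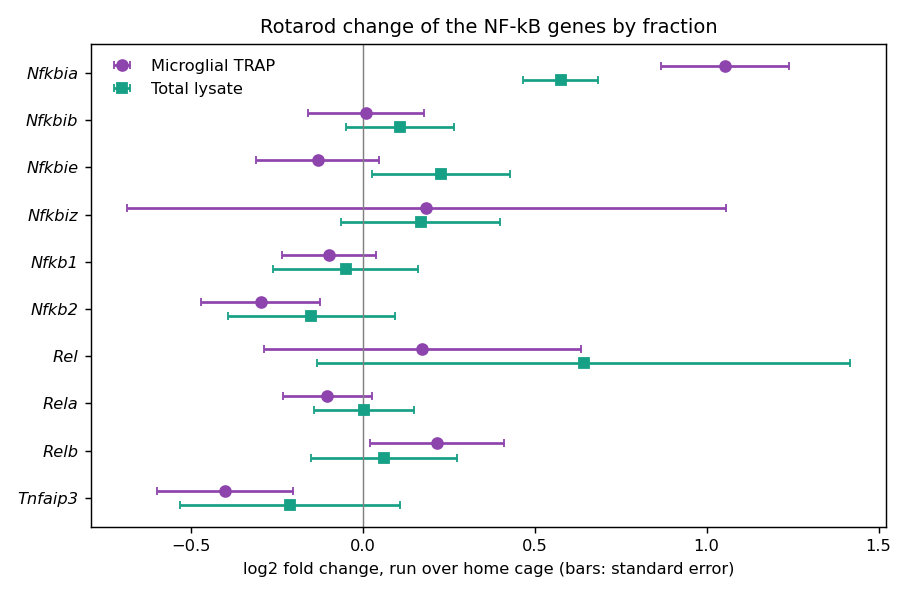
Log2 fold change of Run over home cage for the 10 genes, with standard errors, in microglial TRAP (purple circles) and total lysate (green squares). Nfkbia lies at 1.05 in TRAP and 0.58 in lysate, and the bars of most other genes reach or cross 0.

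Tnfaip3, the other inhibitor with kappa-B matches shown above, gave values of the opposite sign in the fits. Its log2 fold change was -0.40 ± 0.20 in TRAP and -0.21 ± 0.32 in lysate (adjusted p 0.89 in lysate, edgeR). In TRAP it averaged 7.21 ± 2.32 CPM in Run mice and 10.6 ± 2.89 CPM in home cage mice of cohort 1 (SD, n = 4 each). In cohort 2 it averaged 10.4 ± 1.49 CPM in Run mice and 11.9 ± 2.66 CPM in home cage mice (n = 3 each). The lysate of cohort 2 ran the other way, with 3.98, 3.74 and 4.09 CPM in Run mice against 3.00, 2.96 and 2.84 CPM in home cage mice, and no overlap. In that cohort's lysate 3 of the 10 genes, Nfkbia, Nfkbiz and Tnfaip3, lay above home cage without overlap. So did 4.7% of the 13670 genes with a mean CPM of at least 1 in lysate, and 2.81% of them lay below. In cohort 1 lysate it ran from 0.82 to 4.10 CPM in Run mice and from 2.03 to 6.13 CPM in home cage mice, which overlap. The difference of the Run change in lysate between the cohorts, 1.12 ± 0.60 on the log2 scale, did not pass the test (adjusted p 1.00, edgeR).

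**Figure D5:**
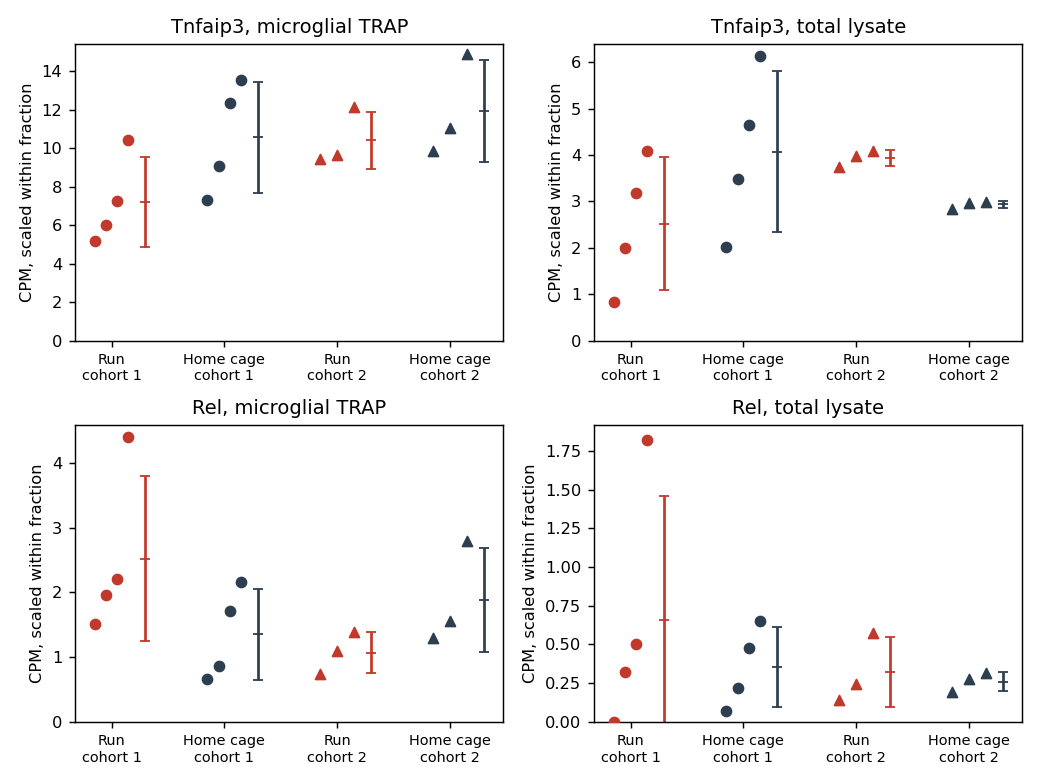
Tnfaip3 in the top row and Rel in the bottom row as CPM per library, in microglial TRAP on the left and total lysate on the right, with Run left of home cage in each cohort. Bars show mean and SD (n = 4 in cohort 1 and 3 in cohort 2); for Rel the Run library at 4.39 CPM in TRAP and that at 1.82 CPM in lysate are from the same mouse.

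No gene among all 17101 tested (0%) differed in its Run change between the cohorts in lysate, by edgeR, and none of the 10 did by DESeq2. For Nfkbia the difference of cohort 2 minus cohort 1 was -0.21 ± 0.22 in lysate, with no unadjusted p under 0.05 among the 10. In TRAP, where 0 of 16289 genes (0%) were called, it was 0.19 ± 0.38, and -0.62 ± 0.31 without the 2 mice, a value that rests on the 1 Run mouse left in cohort 2, at 211 CPM. The values farthest from 0 in TRAP were -1.72 ± 0.84 for Rel, 0.98 ± 1.78 for Nfkbiz and 0.76 ± 0.29 for Nfkbib. Nfkbib averaged 16.3 ± 2.43 CPM in Run mice and 20.3 ± 3.37 CPM in home cage mice of cohort 1, but 59.4 ± 16.0 CPM in Run mice and 43.8 ± 7.68 CPM in home cage mice of cohort 2. The Run mice behind the cohort 2 mean had 76.9 and 55.7 CPM in the 2 mice whose Y-linked levels went against their labels, and 45.6 CPM in Female1. Without those 2 mice the Nfkbib difference was 0.39 ± 0.32, again with 1 Run mouse left in cohort 2.

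The Run change of Nfkbia in TRAP minus that in the whole tissue was smaller without the same 2 mice. It was 0.48 ± 0.27 on the log2 scale, and 0.09 ± 0.22 without the 2 mice whose Y-linked levels went against their labels. The second value rests on the 1 Run mouse left in cohort 2, so whether the difference depends on the 2 mice cannot be told. Among all 16880 genes tested for that difference, 0 (0%) were called by edgeR. Of the 10 genes, 0 had an unadjusted p under 0.05, and DESeq2 and limma-voom called 0. The difference includes the TRAP values known when the genes were chosen, so nothing is read from the counts among the 10. For the other 9 of the family the values ran from -0.53 ± 0.89 for Rel to 0.16 ± 0.30 for Relb. In cohort 1 alone the difference for Nfkbia was 0.29 ± 0.20.

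None of the other lists of the pathway gave a called gene between Run and home cage by edgeR in either fraction. Of the 34 target genes tested in TRAP, 11 had a positive log2 fold change, beside 50.2% of all tested genes, with a median of -0.18 beside 0.001 for all. Of those targets 5 had an unadjusted p under 0.05, as did 3.56% of all 15644 genes. The smallest p was that of Tnfaip2, a TNF-induced gene, at -0.79 ± 0.18 (adjusted p 0.23, edgeR), which DESeq2 called as lower in Run. The rest of those 5 went both ways. Bcl2a1b (-0.36 ± 0.14) and Birc3 (-0.30 ± 0.13) had lower values in Run, and Vcam1 (0.70 ± 0.21) and Ptgs2 (1.53 ± 0.62) higher ones. In lysate 15 of 30 tested targets were positive, with a median of -0.01, and 3 had an unadjusted p under 0.05, beside 7.30% of all 16522 genes. The smallest p was that of the cytokine gene Il1a at -1.99 ± 0.57 (adjusted p 0.50, edgeR). The rest of those 3 were Bcl2l1 (0.29 ± 0.08) and Csf1 (0.37 ± 0.13), both with higher values in Run. DESeq2 called 0 targets there and limma-voom 0 in either fraction.

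The upstream lists and regulators held no called gene. In TRAP the genes with the smallest p were the ligase Traf6 (-0.64 ± 0.24) among 22 adaptors and ligases, the NIK kinase gene Map3k14 (-0.46 ± 0.28) among 12 kinases, and the receptor Tlr2 (-0.37 ± 0.16) among 15 receptors. Pdlim2, which promotes the breakdown of Rela protein, had -0.17 ± 0.13 among 16 negative regulators, and Bcl3 had -0.62 ± 0.38 among the 3 other IkB-like genes. Their adjusted p was 1.00 in each case (edgeR). Unadjusted p-values under 0.05 numbered 2 among 22 adaptors, 1 among 15 receptors and 0 in the other 3 lists, beside 3.56% of all genes.

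In lysate the corresponding genes were Tradd (0.31 ± 0.15), the IKK alpha gene Chuk (-0.38 ± 0.14), Tnfrsf11a, the receptor RANK (0.54 ± 0.23), Nlrx1 (-0.54 ± 0.25) and Nfkbid (0.32 ± 0.31), with adjusted p-values from 0.62 to 0.81 (edgeR). Unadjusted p-values under 0.05 numbered 2 among 14 receptors, 1 among 12 kinase genes, 1 among 17 negative regulators and 0 in the adaptors and the IkB-like genes, beside 7.30% of all genes. DESeq2 and limma-voom called 0 genes of these 5 lists in either fraction.

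Among the genes ranked, those whose levels followed Nfkbia most closely were not other members of the family. Nfkbiz and Rel in TRAP, and Nfkb2 and Rel in lysate, had a mean log2 CPM below 1 and were not ranked. Over the 14 TRAP libraries, with cohort means removed, the highest Pearson correlations among 12352 genes were with Cebpb, a transcription factor of inflammatory and metabolic genes (r = 0.95, Spearman's rho 0.90), Cyr61, a matricellular protein gene (r = 0.91, rho 0.91), 1500011B03Rik (r = 0.89, rho 0.80), the stress gene Gadd45b (r = 0.89, rho 0.80) and Abhd15 (r = 0.89, rho 0.80). They are the top of a ranking and so a description. Without the 2 mice r was 0.78 to 0.89 for these 5. Relb ranked 1915 with r = 0.38, and Tnfaip3 had r = -0.35. All these libraries share their Run or home cage condition, so a common difference between conditions is part of r.

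Over the 14 lysate libraries the closest of 12702 genes were Gadd45g (r = 0.96, rho 0.89), Plekhf1 (r = 0.93, rho 0.94), Eif4a3, a core component of the exon junction complex (r = 0.91, rho 0.87), Dbndd2 (r = 0.91, rho 0.94) and Ppp1r3g, a glycogen-targeting phosphatase subunit (r = 0.91, rho 0.87). No gene was in both sets of 5. Of the family members ranked in lysate, Nfkbie was the highest, at 1981 with r = 0.43. Cebpb, at the head of the TRAP set, had a Run log2 fold change of 1.05 ± 0.20 in TRAP and was enriched in TRAP over lysate by 3.63 ± 0.14, whereas Cyr61 had a Run change of 1.46 ± 0.28 and was not enriched, at -0.17 ± 0.17.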

How the data were processed

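The deposited values were raw read counts per gene symbol for 28 libraries in 1 table, which the authors made from poly(A) RNA with Nextera XT libraries, per the labels' protocols. The submitters' processing notes list GRCm38 as genome build and, as tools, STAR 2.7.7a with featureCounts and DESeq2. Strand setting and annotation are not stated in any source used here. The table held 0 columns of samples outside the series. Within each of the 4 groups no pair of libraries agreed within sampling noise (lowest chi-square per degree of freedom 67.5), and pairs across groups were not compared. Columns with no cohort mark were taken as cohort 1, from their condition, sex, number and fraction.

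The genes and pathway lists were chosen with earlier results of these data known. The main test was edgeR 4.0.16 quasi-likelihood (R 4.3.3) with TMM scaling, filterByExpr and Benjamini-Hochberg adjustment over all tested genes at 5%, with cohort as a term. Run was compared with home cage within each fraction over 14 libraries, and TRAP with lysate over 28, not blocked on the mouse. The Run change was also compared between fractions and between cohorts. DESeq2 1.42.0 and limma 3.58.1 (voom) were alternatives. The edgeR fits were also run on simulated counts with known changes, and the other steps were not. Labels do not say more about the mice than sex, number and cohort, so p-values within a fraction measure the spread between these mice. Those of the fits over 28 libraries took both libraries of a mouse as independent, so they measure the spread between libraries. CPM were scaled by TMM in each fraction separately, or across the 28 libraries together for comparisons of fractions or genes. Likeness used log2(CPM + 0.5), cohort means removed, for genes with a mean log2 CPM of at least 1. From each list the text names up to 3 called genes per direction with the smallest p, or, where none was called, the 1 with the smallest p. Other named genes are all 10 family members, the 5 genes most like Nfkbia, and the targets with an unadjusted p under 0.05 between Run and home cage. TRAP and lysate libraries of a mouse are paired by title, and their deviations from the group and cohort means gave a correlation of -0.42 to 0.34, which exceeded 0.1 in 6 of the 14 mice.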

Additional observations from a re-analysis of the deposited data

Results flagged for a closer look

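Rel stood out in 1 mouse in both fractions. In Run TRAP the mouse labelled Male1 of cohort 1 had 4.39 CPM of Rel (588 counts), against 2.21 CPM in the next library, a gap of 0.60 of the range of the 7 Run libraries. In Run lysate the same mouse had 1.82 CPM (178 counts), against 0.57 CPM in the next, a gap of 0.68 of the range. Both gaps exceed the critical value of Dixon's test for 7 samples. Over the 40 groups tested, 2 were picked out. Each group pooled the 2 cohorts, whose levels differed for most genes, so the test's nominal rate of about 5% need not hold.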

How the results depend on the processing

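In lysate the number of the 10 genes called between Run and home cage, 0 as reported, became 1 (Nfkbia) with DESeq2, and leaving out each replicate in turn gave 0 to 1, Nfkbia being called without home cage Male1 of cohort 2 (adjusted p 0.0231, edgeR). In TRAP, a contrast known when the genes were chosen, so that nothing is read from the counts, 0 as reported became 1 with no filter on low counts, with DESeq2 and with the filter set by group in place of the design, an alternative chosen after seeing the data, and 0 to 1 with each replicate left out. Over the alternatives Nfkbia in lysate stayed between 0.45 and 0.66 on the log2 scale, with adjusted p from 0.00087 to 1.00. With the label as a replicate block Nfkbia was 0.99 in TRAP and 0.59 in lysate and 0 genes were called in either, and with the mouse as a replicate block 8 of the 9 genes other than Nfkbia were called between TRAP and lysate. Same-label pairs across conditions deviated together (r over 0.1) in 2 of 7 cases in TRAP and 1 of 7 in lysate.

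Several Run changes in lysate, none of them called, turned sign. limma-voom gave 0.028 for Nfkb1, 0.016 for Nfkb2 and -0.0021 for Rela, and the fit with no cohort term 0.030 for Nfkb1. Cohort 1 alone gave -0.13 for Nfkbiz and -0.0053 for Rela. Cohort 2 alone gave -0.15 for Nfkbie, 0.19 for Nfkb1, 0.051 for Nfkb2, -0.035 for Relb and 0.41 for Tnfaip3. Leave-one-out ranges crossed 0 for Rela (-0.089 to 0.077), Nfkb1 (-0.21 to 0.071), Relb (-0.077 to 0.17) and Rel (-0.045 to 0.86), the Rel change being -0.045 without Run Male1 of cohort 1. Without the 2 mice whose Y-linked levels went against their labels, Nfkbib was -0.049 in TRAP over lysate and 0.046 in the cohort difference in lysate. The cause was not tested. Low counts limit Rel and Nfkbiz.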
